A study of Mus musculus with 6 samples.

Results

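Tm4sf1, Stmn2, Slc6a6, Atp13a3, Mecom, Ptprb, Adgrg6, Amd1 and Thsd7a are 9 of the 31053 genes counted in each of 6 single-cell libraries of the mouse lung. They were selected on their counts, because these followed the UMIs of Cxcl12 in endothelial cells (ECs). The libraries in which this was seen are not stated. The sorted libraries are assumed, and the relation of the 9 genes to Cxcl12 is therefore given as a description of how they were chosen and was not tested. ECs were taken as cells with at least 2 UMIs of Pecam1 and Cdh5 together. A UMI (unique molecular identifier) stands for 1 captured mRNA molecule, and a level is the UMIs of a gene over all UMIs of a group of cells, scaled to the usual CPM unit (counts per 1e+06). The name arterial was set beside the connexin genes Gja4 and Gja5, which mark arterial ECs. All 9 genes were higher in ECs with at least 2 UMIs of both together (arterial-marker ECs) than in the other ECs. This held in each of the 5 libraries that could be split, with Adgrg6 at E15.5 higher by less than its counting error. Gja4 and Gja5 were themselves higher with Cxcl12, so this split does not test the name independently of how the genes were chosen. With another arterial gate, of at least 3 UMIs of Gja5, Hey1, Bmx and Sox17, Adgrg6 was not higher at E15.5 (log2 ratio -0.21) or in the whole lung labelled control (-0.16).

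The study asked which ECs of the growing lung make CXCL12 and what its loss does. Lungs of Cxcl12DsRed/+ embryos and pups gave 1 library at each of E13.5, E15.5 and E18.5 and 1 at P8, each from pooled lungs and sorted for cells that carry the reporter and CD31 but not CD45 or EpCAM, with reporter-positive cells without CD31 collected too. Whole E18.5 lungs gave 1 library labelled Cxcl12 heterozygous control (Cxcl12DsRed/+) and 1 labelled homozygous null (Cxcl12DsRed/DsRed). DsRed is knocked into the Cxcl12 locus in all of them, so by the labels none of the libraries is from a wild type lung. With 1 library per condition, age, sort, genotype and library cannot be told apart, no test between libraries was run, and all intervals are 95% intervals of counting error only.

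CXCL12 is a chemokine that signals through the receptor CXCR4 and guides the growth of blood vessels. In the lung it is made by arterial ECs and by mesenchymal cells, and pulmonary arterial ECs are told from capillary ECs by connexins, Notch ligands and matrix proteins. The 9 genes do not form a known pathway. They code for membrane proteins of the cell surface (Tm4sf1, Ptprb, Adgrg6, Thsd7a), a regulator of microtubules (Stmn2), a transcription factor (Mecom), and proteins that import or make small amines and related osmolytes (Slc6a6, Amd1, Atp13a3).

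The labels of the whole-lung libraries did not match their Cxcl12 counts. The library labelled null held 19986 Cxcl12 UMIs, 192 CPM over all its cells, and the library labelled control held 109, or 1.27 CPM (1.04 to 1.54). The names of the deposited data give the opposite genotypes. Both libraries are called by their label here, and every direction between them is a direction between the library labelled control, nearly without Cxcl12, and the library labelled null, with Cxcl12. In the sorted libraries, from the youngest to the oldest, Cxcl12 was at 265, 639, 1156 and 1112 CPM. ECs numbered 210, 9453, 9119 and 8259 in the same order, 3019 in the library labelled null and 1923 in the one labelled control, with medians of 5667 to 8946 UMIs per EC. The E13.5 library was 1.65% ECs and otherwise mostly mesenchymal, and 18.1% of its ECs also passed the mesenchymal gate. Of the ECs in the whole lungs labelled null and control 10.3% and 9.83% passed it. The whole-lung libraries shared 140 cell barcodes, 1.58% of the smaller, and the other pairs 20 to 54. Leaving the shared barcodes out moved no count of genes by over 1.5 times.

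Promoter sequences are shown for 4 of the genes beside that of Cxcl12, because the genes were grouped for following Cxcl12 and the starts of transcription are where shared motifs can be looked for. The windows run from 250 bases before to 50 bases after the start in RefSeq (GRCm38.p6), each 5′ to 3′ on the strand of its gene. Cxcl12 lies at chr6:117168285-117168584 (plus strand), Tm4sf1 at chr3:57301939-57302238, Adgrg6 at chr10:14544987-14545286, Thsd7a at chr6:12749204-12749503 and Amd1 at chr10:40302139-40302438 (all minus strand). Capitals mark matches on either strand to the motifs searched, which were the SOX core spelled ACAAT, the ETS core spelled CCGGAAG, the RBPJ site spelled TGGGAA, the GATA site spelled GATAAG, the KLF core spelled CACCC and the E-box spelled CACGTG.
Cxcl12: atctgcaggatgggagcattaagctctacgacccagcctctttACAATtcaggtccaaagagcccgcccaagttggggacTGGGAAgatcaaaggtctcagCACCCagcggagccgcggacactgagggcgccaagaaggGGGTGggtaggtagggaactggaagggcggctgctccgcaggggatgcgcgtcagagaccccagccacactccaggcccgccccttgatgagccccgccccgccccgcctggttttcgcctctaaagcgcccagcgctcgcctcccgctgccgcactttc
Tm4sf1: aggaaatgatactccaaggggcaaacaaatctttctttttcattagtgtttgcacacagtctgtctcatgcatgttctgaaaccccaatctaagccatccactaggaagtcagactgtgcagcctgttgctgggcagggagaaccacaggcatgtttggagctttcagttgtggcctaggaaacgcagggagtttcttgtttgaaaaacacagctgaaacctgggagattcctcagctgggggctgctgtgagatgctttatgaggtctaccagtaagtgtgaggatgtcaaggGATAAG
Adgrg6: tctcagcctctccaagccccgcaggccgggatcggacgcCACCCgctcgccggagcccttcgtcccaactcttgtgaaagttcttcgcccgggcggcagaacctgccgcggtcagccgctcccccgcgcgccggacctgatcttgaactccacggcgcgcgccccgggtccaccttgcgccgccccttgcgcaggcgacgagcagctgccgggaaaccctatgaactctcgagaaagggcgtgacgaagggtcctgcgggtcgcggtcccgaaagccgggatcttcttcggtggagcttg
Thsd7a: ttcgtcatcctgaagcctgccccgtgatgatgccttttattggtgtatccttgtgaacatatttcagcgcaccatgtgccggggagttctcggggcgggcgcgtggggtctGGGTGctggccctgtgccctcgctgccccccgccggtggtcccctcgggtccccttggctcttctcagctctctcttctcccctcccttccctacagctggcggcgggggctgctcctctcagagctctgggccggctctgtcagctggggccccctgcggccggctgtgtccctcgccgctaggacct
Amd1: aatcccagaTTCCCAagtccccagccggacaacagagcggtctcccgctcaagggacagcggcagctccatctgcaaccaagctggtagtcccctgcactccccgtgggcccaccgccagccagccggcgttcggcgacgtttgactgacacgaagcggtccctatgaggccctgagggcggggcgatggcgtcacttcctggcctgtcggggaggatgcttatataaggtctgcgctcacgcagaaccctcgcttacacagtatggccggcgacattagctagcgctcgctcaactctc
The Cxcl12 window held the SOX core and the RBPJ site 1 time each and the KLF core 2 times. Windows were at hand for 5 of the 9 genes, 6 windows in all since Mecom had 2, and both Mecom windows held no match. The KLF core was found in 2 of the 6 windows (Adgrg6 and Thsd7a), against 57.5% of all 32851 windows. The RBPJ site was found in 1 (Amd1), against 25.6%, and the GATA site in 1 (Tm4sf1), against 7.44%. The SOX, ETS and E-box motifs were found in none, against 31.0%, 8.86% and 7.15% of all windows. No motif was thus found in more than 2 of these 6 windows, and the KLF core was in 3 with that of Cxcl12 counted. A match is a run of letters and not a bound site.

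All 9 genes were higher in ECs rich in Cxcl12 than in ECs without a Cxcl12 UMI at E15.5, E18.5 and P8, with Adgrg6 at E15.5 under the level needed for a call, while at E13.5 the gaps of most were smaller. ECs were split by the Cxcl12 UMIs in the cell into 0, 1 to 4, and 5 or more. A gene was called when its CPM was at least 2-fold higher (with 0.5 CPM added to both), among genes of at least 10 CPM over all ECs of the library. Adgrg6 stayed under 10 CPM at E13.5 and E15.5, so 8 members could be called there and 9 in the other libraries. Between 5 or more and 0 UMIs, 2 of 8 were called at E13.5 (Atp13a3 and Amd1), where 11.1% of all genes were, and 8 of 8 at E15.5, where 2.45% were. The E18.5 count was 9 of 9 against 4.09% of all genes, and the P8 count 9 of 9 against 1.21%. Between 1 to 4 and 0 UMIs, 0 of 8 were called at E13.5 (10.6% of all genes), 1 of 8 at E15.5 (Slc6a6, 0.231%), 8 of 9 at E18.5 (all but Ptprb, 1.93%) and 1 of 9 at P8 (Amd1, 0.1%). The genes were picked for this pattern, so these counts are set beside the shares and nothing is read from them.

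ECs rich in Cxcl12 also differed in other ways. The share in the arterial-marker gate was 50.6% of ECs without Cxcl12 UMIs and 97.0% of those with 5 or more at E15.5, and the values were 33.8% and 97.1% at E18.5 and 46.7% and 93.2% at P8. The share with at least 2 UMIs of the proliferation genes Mki67 and Top2a was 10.2% and 2.66% at E18.5. Depth was alike, with medians of 5449 and 5962 UMIs per EC at E18.5, except at E13.5, where they were 4926 and 7466. At E13.5 the summed level of 8 mesenchymal markers was higher with Cxcl12 as well, at 279 CPM in the 35 ECs without it and 1239 CPM in the 122 ECs with 5 or more, and 7 of the 8 were past 2-fold. Epithelial markers went the other way at E18.5, at 732 and 238 CPM. The part of RNA from other cells in the members' values was not tested.

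Tm4sf1 codes for a small membrane protein with 4 membrane passes that is abundant on endothelium (ENSMUSG00000027800, GRCm38 chr3:57285611-57301988, minus strand). Levels are given in the order of ECs with 0, 1 to 4, and 5 or more Cxcl12 UMIs here and for the genes that follow. The genes were chosen for following Cxcl12, and intervals of counting error alone are narrow at this depth. Order and lack of overlap are therefore description only. At E13.5 Tm4sf1 was at 757, 1117 and 1273 CPM, with E15.5 at 933, 1512 and 2876, E18.5 at 661, 1868 and 3651 and P8 at 1458, 2032 and 3102. The 3 groups of ECs were in the order of their Cxcl12 in every sorted library, and their intervals did not overlap from E15.5 on. The gap between the outer groups was widest at E18.5, at 5.52-fold, and was 3.08-fold at E15.5 and 2.13-fold at P8.

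Ptprb is the vascular endothelial phosphatase VE-PTP, which acts on the receptor Tie2 and on VE-cadherin (ENSMUSG00000020154, chr10:116275523-116389535, plus strand). The E13.5 level of Ptprb was 255, 258 and 339 CPM, with E15.5 at 149, 228 and 342, E18.5 at 393, 697 and 1077 and P8 at 461, 620.3 and 1001. The log2 ratio of the outer groups was 0.41, 1.19, 1.45 and 1.12 in the same libraries, the smallest of the 9 genes at E18.5. Its lowest group at E18.5 and P8 lay above its highest at E15.5, so age and Cxcl12 group both went with its level.

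Adgrg6 (GPR126) is an adhesion G protein-coupled receptor (ENSMUSG00000039116, chr10:14402583-14545659, minus strand, with the gene Gm46212 on the opposite strand). It was scarce in ECs before E18.5. At E13.5 it had 0, 3 and 3 UMIs in the 3 groups of ECs, where 3 counts in the group without Cxcl12 would be 11.8 CPM, so no ratio is given. At E15.5 it was at 3.87, 1.52 and 6.21 CPM, with the lowest value in the middle group. From E18.5 on it was in the order of Cxcl12, at 13.4, 34.4 and 184 CPM, and P8 gave 17.0, 34.3 and 179 CPM. The outer groups of these last 2 libraries differed 13.3-fold and 10.3-fold, with no overlap of intervals.

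Thsd7a codes for a membrane protein with thrombospondin type 1 repeats (ENSMUSG00000032625, chr6:12311610-12749410, minus strand, with Gm44129 on the opposite strand). At E13.5 it was at 129.5, 86.7 and 145 CPM, with E15.5 at 34.5, 61.3 and 124, E18.5 at 32.1, 114 and 319.5 and P8 at 25.5, 39.5 and 107. At E13.5 the middle group was the lowest and the intervals of the outer groups (89.1 to 182 and 123 to 169 CPM) overlapped. From E15.5 on each group lay above the one with less Cxcl12 and no intervals overlapped. The outer groups differed 3.56-, 9.81- and 4.12-fold from E15.5 to P8.

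Stmn2 (stathmin 2) binds tubulin and promotes the disassembly of microtubules, and is best known from neurons (ENSMUSG00000027500, chr3:8509360-8561606, plus strand). At E13.5 Stmn2 was at 1020.4, 1099 and 1735 CPM, with E15.5 at 425, 763 and 1708, E18.5 at 331, 665 and 1685 and P8 at 1024, 1317 and 2068. All 4 libraries were in the order of Cxcl12, but at E13.5 the lower 2 groups had overlapping intervals. ECs without a Cxcl12 UMI held less Stmn2 at E15.5 and E18.5 than at E13.5 and P8, and at P8 the outer groups differed only 2.02-fold. Mecom codes for a zinc finger transcription factor, also called EVI1 (ENSMUSG00000027684, chr3:29951296-30548008, minus strand, with Mecomos on the opposite strand). The E13.5 level of Mecom was 247, 334 and 363 CPM, with E15.5 at 128, 240.0 and 403, E18.5 at 69.4, 199 and 460.2 and P8 at 33.4, 51.4 and 179. Mecom was lower at P8 than at E18.5 in each group of ECs, yet the outer groups still differed 5.30-fold.

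Slc6a6 is the taurine transporter (ENSMUSG00000030096, chr6:91684053-91759066, plus strand). At E13.5 it was at 216, 191 and 325 CPM, with E15.5 at 112, 238 and 473, E18.5 at 91.4, 271 and 672 and P8 at 139.6, 268 and 434. It was in the order of Cxcl12 from E15.5 on, without overlap, and at E13.5 its middle group was the lowest. Atp13a3 is a P5B ATPase that transports polyamines into the cell (ENSMUSG00000022533, chr16:30312423-30405975, minus strand). At E13.5 Atp13a3 was at 27.5, 52.0 and 148 CPM, with E15.5 at 27.7, 55.6 and 173, E18.5 at 22.0, 81.0 and 364 and P8 at 18.2, 33.6 and 259. It had the widest ratio of the outer groups among the members called in each sorted library, 5.32-fold at E13.5 and 6.14-, 16.2- and 13.9-fold at the later ages. At P8 most of the step lay above 4 Cxcl12 UMIs.

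Amd1 (S-adenosylmethionine decarboxylase) makes the aminopropyl donor for polyamine synthesis (ENSMUSG00000075232, chr10:40287458-40302186, minus strand). The E13.5 level of Amd1 was 39.2, 54.2 and 121 CPM, with E15.5 at 36.7, 62.7 and 147, E18.5 at 74.7, 191 and 386 and P8 at 28.8, 62.7 and 149. The groups were in the order of Cxcl12 in each library. Its levels are uncertain, because 98.8% of the 60-base stretches in the last 300 bases of its transcripts also occur in Amd2 or in Amd pseudogenes, and reads there could be split or dropped. None of the other 8 genes shared such a stretch with another gene. Amd2 itself was 3.25-, 4.55- and 3.22-fold higher in the outer group from E15.5 to P8. Of the genes that set the EC gate, Pecam1 was at 912 and 872 CPM in the outer groups at E18.5 and Cdh5 at 1254 and 858 CPM, so neither was higher with Cxcl12 there. At E15.5 both were higher, Pecam1 at 481 and 634 CPM and Cdh5 at 702 and 819.8, by less than 2-fold.

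**Figure D1:**
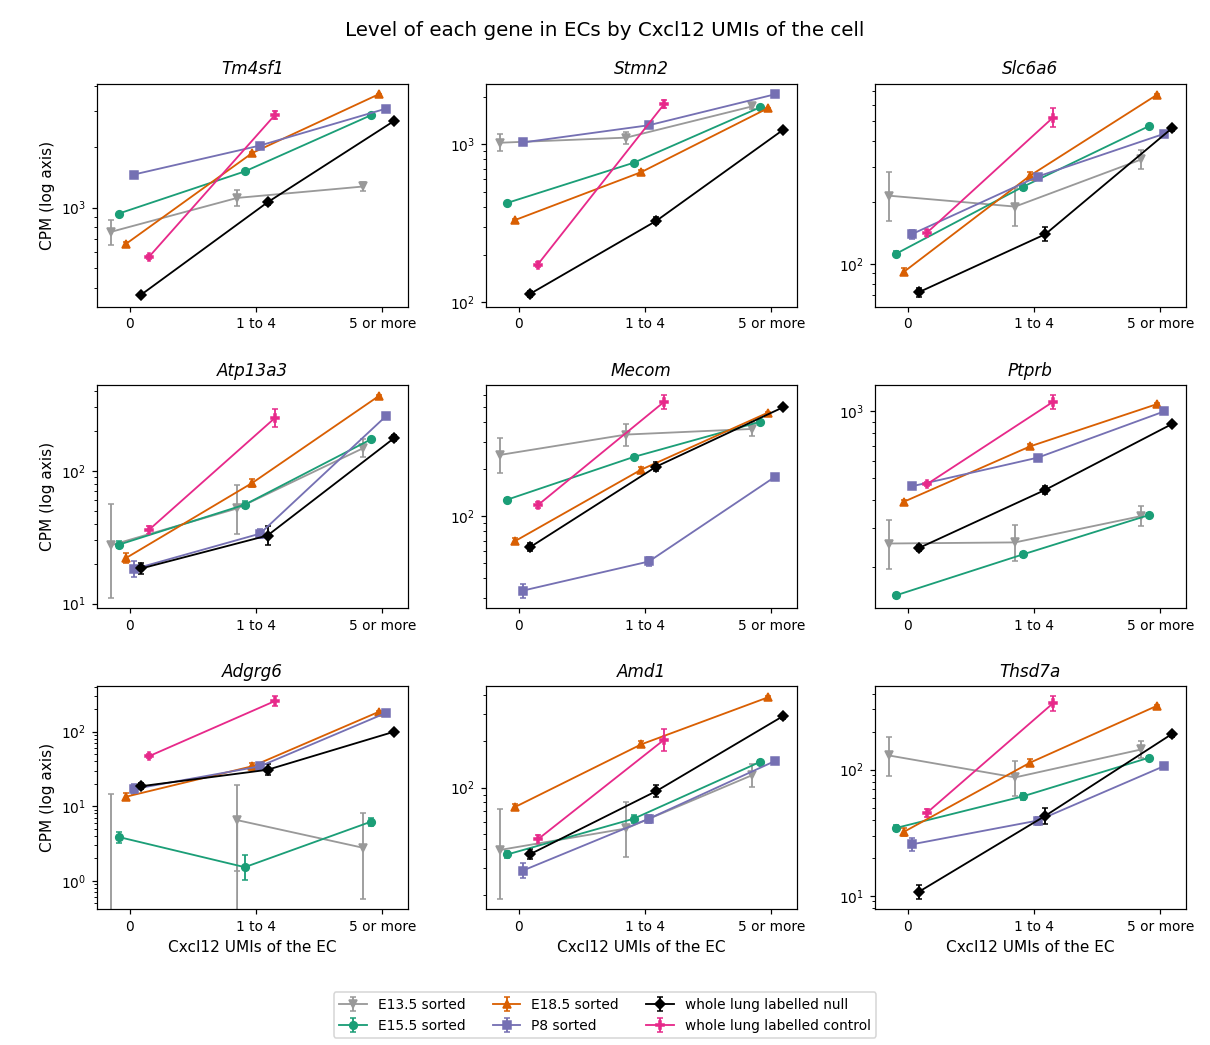
CPM on a log axis of each of the 9 genes in ECs with 0, 1 to 4, and 5 or more Cxcl12 UMIs, 1 line per library, with exact Poisson 95% intervals of counting error as bars and groups under 30 cells left out. From E15.5 on the lines go up from left to right, as in Atp13a3 at E18.5 from 22.0 to 364 CPM, except Adgrg6 at E15.5, and the point of Adgrg6 at E13.5 without Cxcl12 UMIs (0 UMIs) cannot be drawn on a log axis.

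The whole-lung library labelled null, which has Cxcl12 UMIs and was not sorted by the reporter, gave the same order for all 9 genes. The list of genes does not say whether this library was used to choose them. Of its ECs 1849 had 0, 393 had 1 to 4 and 777 had 5 or more Cxcl12 UMIs. All 9 members were called between 5 or more and 0 UMIs, where 3.33% of all genes were, and 5 of 9 between 1 to 4 and 0, where 1.81% were. Thsd7a was at 10.8, 43.1 and 191 CPM, Stmn2 at 113, 327 and 1227, and Tm4sf1 at 369, 1062 and 2687. Adgrg6 was at 18.6, 30.8 and 99.4 CPM, Ptprb at 244, 445 and 877 and Mecom at 63.5, 208 and 498. Each group lay above the one with less Cxcl12. The genes of small molecules did the same, Slc6a6 at 72.7, 139.8 and 461 CPM, Atp13a3 at 18.4, 32.5 and 175 and Amd1 at 36.9 and 291 in the outer groups with its middle group between them. The log2 ratios of the outer groups ran from 1.85 for Ptprb to 4.09 for Thsd7a, with a median of 2.96 against 0.03 over all genes. The summed mesenchymal markers were at 905, 2366 and 1266 CPM, highest in the middle group, and the immune markers at 757, 401 and 636 CPM, lowest in the middle group. Epithelial markers summed to 460, 850 and 127 CPM and cycling genes to 697, 537 and 165. Their part in the values of the members was not tested.

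The shares of ECs with a UMI went the same way as the levels for the genes and libraries given here. The genes were chosen for following Cxcl12, so shares by Cxcl12 group are description only and no separate support. Cells were thinned to 2000 UMIs each so that depth was equal, which left out 72 of the 3921 ECs without Cxcl12 UMIs and 33 of the 3682 with 5 or more at E18.5. There, 47.2% of ECs without and 97.9% of ECs with 5 or more Cxcl12 UMIs had a UMI of Tm4sf1, 33.4% and 83.0% of Stmn2, and 46.2% and 85.5% of Ptprb. Scarcer transcripts were seen in 3.95% and 43.2% (Atp13a3), 1.95% and 30.2% (Adgrg6) and 5.82% and 42.9% (Thsd7a). Without thinning the shares for Thsd7a were 13.3% and 71.2%. In the library labelled null the thinned shares were 38.6% and 94.2% for Tm4sf1 and 2.56% (1.88 to 3.39) and 32.9% (29.6 to 36.3) for Thsd7a. As a level of background, immune cells of that library, which should lack Tm4sf1, Stmn2 and Thsd7a but not all of the 9 genes, and held 628 thinned cells, had Tm4sf1 in 1.43% and Stmn2 in 0.318%, and Thsd7a in 0, which by the limit of 3 counts allows a share of up to 0.478%. ECs without a Cxcl12 UMI, with Stmn2 in 15.5%, lay above these shares at the same depth of 2000 UMIs. For Slc6a6 and Atp13a3 the immune cells give no such level, since 44.6% and 18.8% of them had a UMI.

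Counted together, a thinned EC held UMIs of 1.77 of the 9 genes on average when it had no Cxcl12 UMI at E18.5, 3.37 with 1 to 4 and 5.55 with 5 or more. E15.5 gave averages of 1.74, 2.72 and 4.11, P8 of 2.54, 3.25 and 4.58, and the values were 1.23, 2.59 and 4.75 in the library labelled null. At E13.5 they were closest together, at 2.79, 3.21 and 3.80. The genes were chosen for following Cxcl12, so these averages are description only. Mesenchymal, immune and epithelial cells held 0.562, 0.694 and 0.809 in the library labelled null, and mesenchymal cells 0.972 at E15.5. At least 4 of the genes were seen in 89.6% of the Cxcl12-rich ECs at E18.5 and in 12.5% of those without Cxcl12.

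The split by Gja4 and Gja5 uses the UMIs of neither Cxcl12 nor any of the 9 genes. It gave the same direction. The gate held 7242 of 9453 ECs at E15.5, 6037 of 9119 at E18.5 and 6442 of 8259 at P8, and in the libraries labelled null and control 1516 of 3019 and 590 of 1923. At E13.5 only 14 ECs lay outside the gate and no ratio was made. Past 2-fold were 8 of 8 members at E15.5 (4.35% of all genes), all 9 at E18.5 (3.85%), 5 of 9 in the P8 lungs (0.775%), 9 of 9 in the library labelled null (2.23%) and 9 of 9 in the one labelled control (1.8%). The 5 at P8 were Atp13a3, Mecom, Adgrg6, Amd1 and Thsd7a. With the gate of Gja5, Hey1, Bmx and Sox17, in place of Gja4 and Gja5, the counts were 8 at E15.5, 9 at E18.5, 1 at P8 (Adgrg6), 8 labelled null (without Adgrg6) and 5 labelled control (Tm4sf1, Stmn2, Mecom, Amd1 and Thsd7a). The share of all genes was not computed for this gate, so nothing is read from these counts. The sorted values rest on the ECs on which the genes are assumed to have been chosen, and Gja4 and Gja5 were themselves higher with Cxcl12, so the split is not independent of that choice in these libraries.

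Stmn2 in the library labelled control gave the widest gap of all, with 646 CPM against 38.7 in the other ECs. In the other libraries it was at 1324 and 168 CPM (E15.5), 1257 and 299 (E18.5), 1756 and 1148 (P8) and 755 and 90.9 (labelled null). At P8, the arterial-marker and other ECs thus differed by the least for this gene, 1.53-fold. The P8 gate held 6442 of 8259 ECs, with summed capillary markers at 3026 CPM inside and 3241 CPM outside. It thus separated capillary markers little at P8, and the part of this in the P8 ratios was not tested. Tm4sf1 was at 2355 and 413, 2879 and 464, 2665 and 1579.6, 1831 and 262, and 1568 and 229 CPM in the same order, with the labelled control last. Here too P8 stood apart, because the other ECs of the sorted P8 lungs held 1579.6 CPM. Thsd7a was at 99.1 and 13.7, 232 and 24.8, 79.8 and 32.2, 113 and 8.19, and 139 and 17.2 CPM. Adgrg6 at E15.5 was at 4.54 CPM (4.06 to 5.06) and 4.04 CPM (3.27 to 4.93), intervals that overlapped. In the other libraries it was at 122 and 15.2, 122 and 28.3, 60.1 and 21.2, and 87.2 and 38.8 CPM. Markers of other cells and of the cell cycle moved with the split. In arterial-marker and other ECs the epithelial list was at 244 and 1186 CPM at P8, and the immune list at 5.19 and 67.4 at P8, 474 and 886 labelled null and 947 and 1632 labelled control. At P8 most of the immune list was Lyz2, at 4.51 and 60.9 CPM, so the P8 sums rest mainly on that gene. The cycling list was lower in arterial-marker ECs in each of the 5 libraries, as in 496 against 997 CPM at E15.5 and 318 against 765 labelled null. Their part in the values of the members was not tested.

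The remaining members spanned narrower ranges. The log2 ratio of arterial-marker over other ECs ran from 0.73 (P8) to 1.92 (E15.5) for Ptprb, from 0.97 (P8) to 2.54 (E18.5) for Slc6a6, from 1.45 (P8) to 2.70 (E18.5) for Mecom, from 1.78 (P8) to 3.32 (E18.5) for Atp13a3 and from 1.44 (P8) to 2.66 (labelled null) for Amd1. P8 gave the lowest value for each of these 5 genes, in a library where summed capillary markers were nearly as high inside the gate as outside. The P8 ECs outside the gate were also richer in Cxcl12, with a UMI in 49.9% of them, against 20.3% at E15.5 and 15.7% at E18.5, and a level of 367 CPM, against 72.8 and 91.3.

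**Figure D2:**
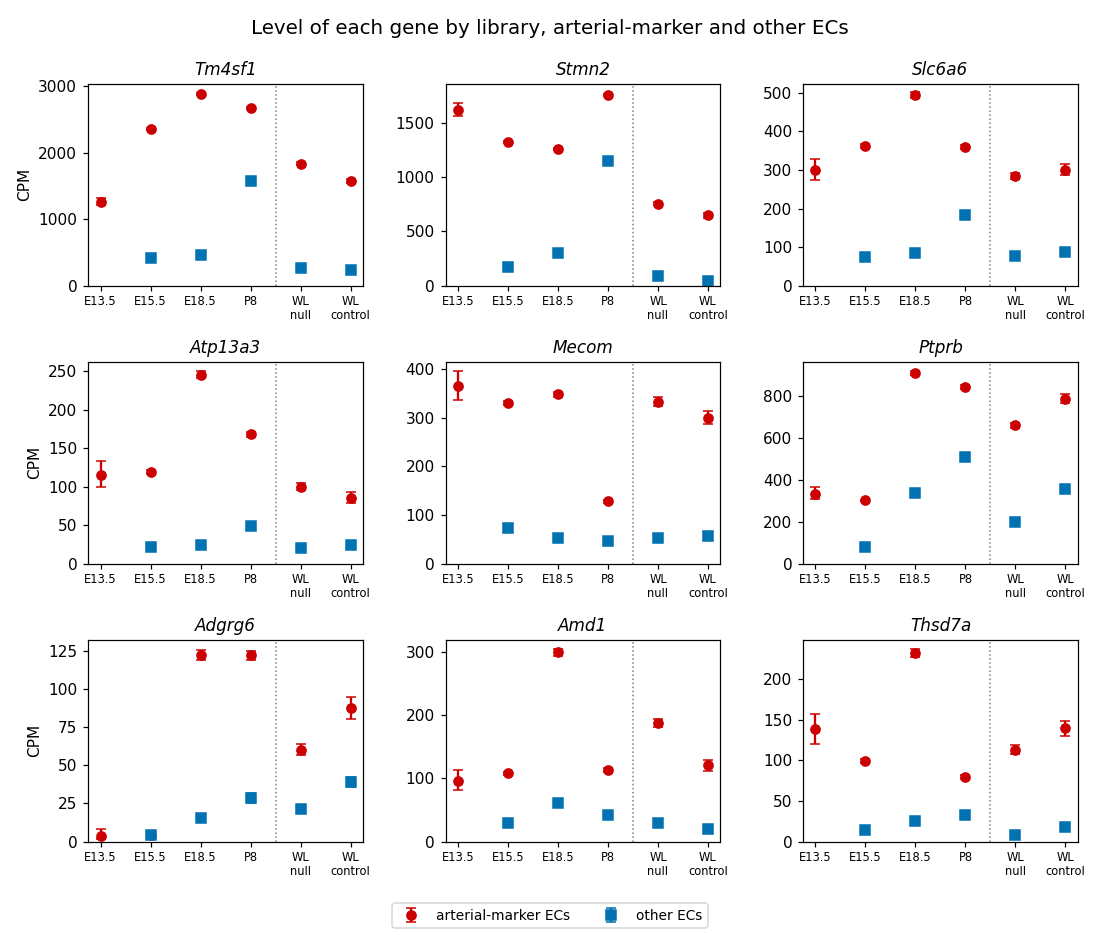
CPM of each gene in arterial-marker ECs (red) and other ECs (blue) in the 4 sorted libraries and, right of the dotted line, the whole lungs (WL) labelled null and control, with exact Poisson 95% intervals as bars. The red points lie above the blue in each library drawn, with overlapping intervals for Adgrg6 at E15.5, where the blue point covers the red, and the 14 other ECs at E13.5 are not drawn.

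The arterial-marker split was then made among ECs without a Cxcl12 UMI. It cannot take arterial marking and Cxcl12 apart, because the gated ECs without Cxcl12 UMIs differed in EC markers from the whole gate. In each library split here their summed arterial markers were lower and their summed capillary markers higher. Labelled null the arterial sums were 1996 CPM in them and 3553 in the whole gate, and the capillary sums 2220 and 1627. Among ECs without a Cxcl12 UMI, arterial-marker ECs were past 2-fold over the other ECs in 7 of 8 members at E15.5 (3.5% of all genes), 6 of 9 at E18.5 (1.9%), 0 of 9 at P8 (0.812%), 6 of 9 in the library labelled null (0.723%) and 8 of 9 in the one labelled control (1.62%). Those not past it were Amd1 at E15.5, Stmn2, Ptprb and Adgrg6 at E18.5, and Adgrg6 labelled control. At P8 the median log2 ratio of the 9 was 0.64, against -0.01 over all genes, and the largest was 0.89. In the library labelled null the 3 genes not past 2-fold were Slc6a6 (log2 ratio 0.43), Atp13a3 (-0.10) and Adgrg6 (-0.70). The interval of Adgrg6 there, -1.11 to -0.35, lay below 0, while in the library labelled control its ratio was 0.76 (0.57 to 0.96). Atp13a3 was at -0.10 (-0.45 to 0.22) labelled null and 1.47 (1.27 to 1.71) labelled control. In the library labelled control 1854 of 1923 ECs have no Cxcl12 UMI, so this group there holds nearly the whole arterial population, and in the library labelled null it holds 506 of its 1516 arterial-marker ECs. ECs without Cxcl12 UMIs are therefore different selections of cells in the whole-lung libraries. Between arterial-marker and other ECs without Cxcl12 UMIs the epithelial list was at 82.8 and 1694 CPM at P8 and the immune list at 2.25 and 65.0, while labelled null the immune list was at 351 and 913 and the cycling list at 460.3 and 788. Over all P8 ECs the immune list was mostly Lyz2, as given above. The epithelial list was at 593 and 409 CPM labelled null and at 1272 and 1225 labelled control. Labelled control the immune list was at 1052 and 1637 CPM and the cycling list at 239 and 602. In the same cells the capillary sums were 2220 and 2219 CPM labelled null and 3182 and 3265 at P8, nearly alike inside and outside the gate. They were further apart at E15.5 (660 and 962), E18.5 (2015 and 2320) and labelled control (2006 and 2492). The part of all these markers was not tested here either.

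The members were also set out by Cxcl12 inside and outside the arterial-marker gate. They were chosen for following Cxcl12 in ECs, so the counts in this paragraph are description and nothing is read from them. Past 2-fold between 5 or more and 0 UMIs were 6 of 8 at E15.5 (0.641% of all genes), 8 of 9 at E18.5 (2.77%), 7 of 9 at P8 (0.9%) and 9 of 9 in the library labelled null (2.96%). Ptprb fell short of 2-fold at all 3 ages, and Tm4sf1 did so at E15.5 and P8. In the library labelled null, Atp13a3 was at 17.4 and 180.2 CPM, Thsd7a at 20.3 and 199, Adgrg6 at 12.6 and 103 and Ptprb at 384 and 897, in arterial-marker ECs with 0 and with 5 or more Cxcl12 UMIs. Ptprb gave the smallest log2 ratio of the 9 there, 1.22, and Atp13a3 the largest, 3.34. The arterial-marker ECs with 0 and with 5 or more Cxcl12 UMIs also differed in the summed EC markers. The arterial list summed to 3178 and 4143 CPM in them at E15.5, 3350.5 and 5885 at E18.5, 2630.5 and 4099.6 at P8 and 1996 and 4840.1 labelled null, and the capillary list to 659.6 and 453, 2015 and 1033, 3182 and 2931, and 2220.0 and 1134. ECs with large-artery markers were 8.84% and 33.7% of them at E18.5 and 9.88% and 34.8% labelled null. The summed epithelial markers went from 861 to 241 CPM at E18.5, from 82.8 to 371 at P8 and from 593 to 129 labelled null, where the immune markers went from 351 to 623. The part of these differences in the values of the members was not tested. Outside the gate, where the ECs with 5 or more Cxcl12 UMIs numbered 121, 108 and 269 from E15.5 to P8 and 35 in the library labelled null, 8 of 8, 9 of 9, 8 of 9 and 8 of 9 members were past 2-fold, against 5.08%, 5.27%, 1.71% and 5.21% of all genes. The exceptions were Stmn2 at P8, with a log2 ratio of 0.67, and Adgrg6 labelled null, with 0.30. Mesenchymal markers were higher in the same ECs outside the gate, past 2-fold in 5 of 5 tested at E15.5, 5 of 5 at E18.5 and 7 of 7 labelled null, with median log2 ratios of 1.84, 3.97 and 3.44, and their part in these counts was not tested. At P8 they went the other way, with the list summed to 7.28 CPM in the ECs outside the gate with 5 or more Cxcl12 UMIs and 128 CPM in those with 0, beside epithelial markers at 2229 and 1694 CPM and immune markers at 246 and 65.0. As above, the immune list over all P8 ECs was mostly Lyz2. Inside the gate mesenchymal markers were past 2-fold higher in 1 of 5 at E15.5, 2 of 5 at E18.5 and 0 of 7 labelled null. The gate and the Cxcl12 groups each use only a few UMIs per cell, so a cell with 0 or 1 UMI of the connexins may still express them.

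**Figure D3:**
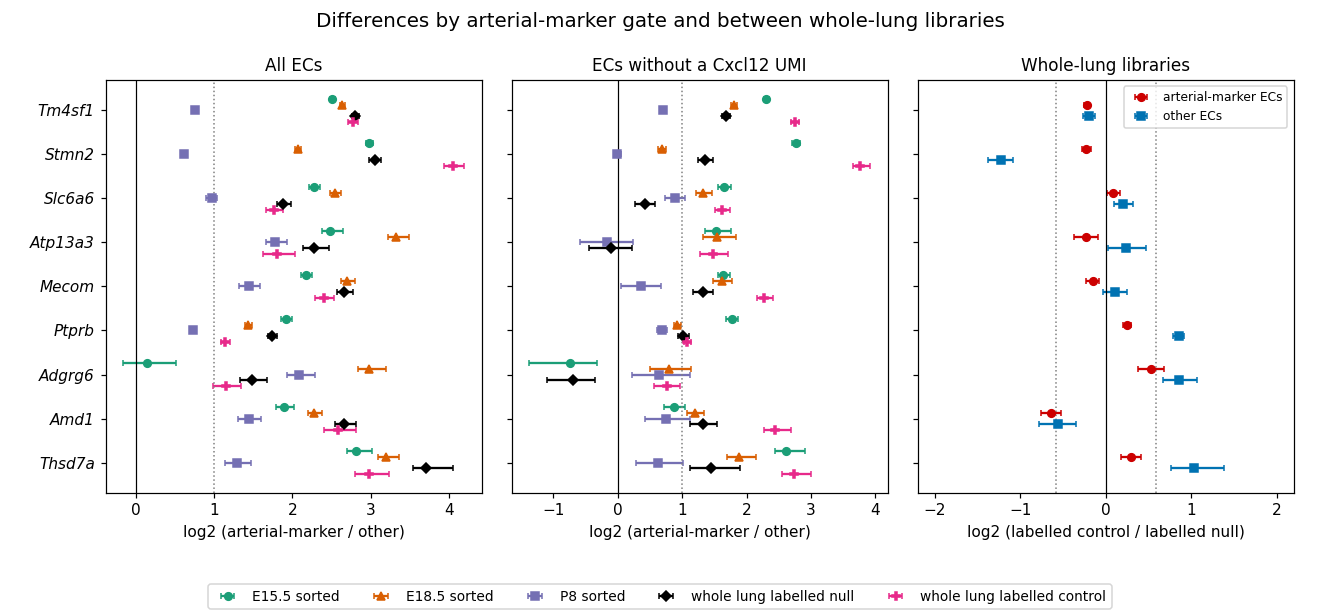
Log2 ratios of the 9 genes with 95% intervals of counting error: arterial-marker over other ECs among all ECs (left) and among ECs without a Cxcl12 UMI (middle) in 5 libraries, with a dotted line at 2-fold, and the library labelled control over the one labelled null (right), with dotted lines at 1.5-fold. In the middle panel the P8 points all lie under 2-fold, and in the right panel only Amd1 among the arterial-marker ECs lies past 1.5-fold.

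In the arterial-marker ECs of the whole lungs 8 of the 9 genes differed by less than 1.5-fold between the libraries, while Cxcl12 was at 954 CPM in those of the library labelled null and at 12.8 CPM in those of the library labelled control. Amd1 was the only one past 1.5-fold, at 188 CPM (182 to 195) labelled null and 121 CPM (112 to 129.9) labelled control, where 3.27% of all genes were past 1.5-fold in either direction. Tm4sf1 was at 1831 and 1568 CPM, Stmn2 at 755 and 646, and Mecom at 333 and 299.7, each a little lower in the library labelled control. Slc6a6 was at 283 and 301 CPM, and Atp13a3 at 99.7 and 85.3. Ptprb, at 663 and 789 CPM, Adgrg6, at 60.1 and 87.2, and Thsd7a, at 113 and 139, were higher in the library labelled control.

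As log2 ratios of the library labelled control over the one labelled null, the 9 genes ran from -0.64 (-0.75 to -0.52) for Amd1 to 0.53 (0.38 to 0.69) for Adgrg6, with a median of -0.15, against 0.01 over all genes. The gate genes Gja4 and Gja5 were themselves at -0.24 and -0.26. The intervals do not cover the spread between lungs. With counts adjusted by SoupX, which removes free RNA and took away 18.5% of the UMIs of the library labelled null and 40.0% of those labelled control, Tm4sf1, Stmn2, Mecom and Atp13a3 were higher and not lower in the library labelled control (log2 ratios 0.17, 0.20, 0.20 and 0.04), Ptprb, Adgrg6 and Thsd7a were past 1.5-fold (0.68, 0.95 and 0.73), and Amd1 was at -0.24. The direction for Tm4sf1, Stmn2, Mecom and Atp13a3 thus depended on that adjustment, and that for Slc6a6 on the gate, since it was at -0.21 with a gate of at least 3 UMIs of Gja5, Hey1, Bmx and Sox17, which leaves Gja4 out. Immune markers, 5 of 5 of which were at least 1.5-fold higher in the arterial-marker ECs of the library labelled control, summed to 474 CPM there labelled null and 947 labelled control, and epithelial markers to 413 and 1153. Their part in these differences was not tested.

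In the other ECs, the libraries differed more. Stmn2 was at 90.9 CPM (86.5 to 95.6) labelled null and 38.7 CPM (35.5 to 42.1) labelled control. In the opposite direction Ptprb was at 198 and 358 CPM, Adgrg6 at 21.2 and 38.8 and Thsd7a at 8.19 and 17.2. These 4 were past 1.5-fold (2.7% of all genes in either direction), with log2 ratios of -1.22, 0.85, 0.86 and 1.03, and each kept its direction in the alternatives that were run. With the gate of Gja5, Hey1, Bmx and Sox17, however, Adgrg6 (0.55) and Thsd7a (0.50) were under 1.5-fold. Immune markers summed to 886 and 1632 CPM in these cells, epithelial markers to 442 and 1222 and mesenchymal markers to 1237 and 879, 15.2% and 15.6% of them also passed the gate of another cell class, and the part of other cells' RNA was not tested. Over all ECs together, Tm4sf1, Stmn2 and Amd1 were past 1.5-fold lower in the library labelled control (log2 ratios -0.70, -0.90 and -1.08, 1.16% of all genes lower), beside a share of arterial-marker ECs of 30.7%, against 50.2% labelled null.

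Cxcl12 UMIs in the library labelled control were few and lay mostly in arterial-marker ECs. The 109 UMIs lay in 92 cells, 84 of them in 69 ECs, with at most 4 in a cell, and 5 were in barcodes that also occur in the library labelled null. Of these 69 ECs 92.8% were in the arterial-marker gate, against 28.4% of the ECs without Cxcl12. All 9 members were past 2-fold in the 69 ECs over the rest (3.72% of all genes), with a median log2 ratio of 2.35. Thsd7a was at 336 CPM (294 to 382) in them and 45.3 in the rest, Stmn2 at 1788 and 173, and Adgrg6 at 258 and 46.7. Mesenchymal markers summed to 748 CPM in the 69 ECs and 982 in the rest, and immune markers to 22.1 and 1467, both lower in the 69 ECs. Epithelial markers, at 112 and 1239 CPM, and cycling genes, at 41 and 497, were lower in them as well. Their part in the values of the members was not tested.

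Over time, within arterial-marker ECs of the sorted libraries, the genes took different courses. Between E13.5 and E15.5 none of the 8 genes of 10 CPM or more differed 2-fold (2.38% of all genes were higher and 3.41% lower). Between E15.5 and E18.5 Atp13a3, Ptprb, Adgrg6, Amd1 and Thsd7a were past 2-fold higher (7.43% of all genes), and between E18.5 and P8 Mecom, Amd1 and Thsd7a were past 2-fold lower (3.98%). Over all genes the median log2 ratio was 0.16 from E15.5 to E18.5. Tm4sf1, Stmn2 and Slc6a6 stayed within 2-fold from each age to the next, at 1264, 2355, 2879 and 2665 CPM for Tm4sf1, 1619.9, 1324, 1257 and 1756 for Stmn2, and 299.7, 362, 494 and 360.5 for Slc6a6.

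Adgrg6 and Ptprb were higher at E18.5 and P8 than before. Adgrg6 was at 3.69, 4.54, 122 and 122 CPM from E13.5 to P8, with a log2 ratio of 4.61 between E15.5 and E18.5 and an interval around 0 (-0.06 to 0.05) from there to P8. Ptprb was at 335, 302, 913 and 845 CPM. Amd1 and Thsd7a had their highest level at E18.5 and were lower again at P8. Amd1 was at 96.6, 108, 299.9 and 114 CPM and Thsd7a at 138, 99.1, 232 and 79.8. Atp13a3 was at 116, 119, 245 and 168 CPM, highest at E18.5 as well. Mecom, at 366, 331, 348 and 128 CPM, stayed level until E18.5 and was lower at P8. Other markers moved with age in the same cells. Capillary markers summed to 427, 530, 1346 and 3026 CPM in arterial-marker ECs from E13.5 to P8, where the other ECs were at 3241 CPM at P8. Mesenchymal markers summed to 1097, 390, 172 and 45.2 CPM, epithelial markers to 20.9, 55.1, 422 and 244, and cycling genes to 629, 496, 161 and 211. ECs with large-artery markers were 52.0%, 34.6%, 25.7% and 20.9% of the gate. Mesenchymal cells passed the same cut of markers too, 28.8% of them at E13.5, so these are not shares of large-artery ECs alone. The cells in the gate thus differed between ages, and the part of this in the courses of the 9 genes was not tested.

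Large arteries were looked at within the arterial-marker ECs with the markers Gkn3, Fbln2, Lox and Cytl1, of which ECs with at least 2 UMIs in all were set against ECs with 0. The markers are not limited to ECs, since 28.8% of mesenchymal cells at E13.5 also had at least 2 UMIs of them. Thsd7a was past 2-fold higher with these markers in each of the 6 libraries, with log2 ratios between 1.02 (E13.5) and 1.99 (E15.5). It was at 387 and 136 CPM with and without them at E18.5, and the P8 values were 169 and 42.8. The other members past 2-fold differed between libraries. They were Tm4sf1, Stmn2 and Ptprb at E15.5 (4.19% of all genes higher), Tm4sf1 at E18.5 (3.83%), Atp13a3, Mecom and Adgrg6 at P8 (1.77%), and Stmn2, Atp13a3 and Adgrg6 in the library labelled control (4.48%), with none at E13.5 (8.14%) or labelled null (5.24%). Adgrg6 at P8 was at 270.5 and 59.9 CPM, and Atp13a3 at 331 and 92.4. No tested member was past 2-fold lower with the large-artery markers in any library, where 0.113% (P8) to 3.63% (E18.5) of all genes were. Mesenchymal markers were also higher in the cells with large-artery markers, at 1609 CPM against 364 at E13.5, 1032 against 44.4 at E15.5, 445 against 48.7 at E18.5, 67.8 against 42.9 at P8, 2935 against 194 labelled null and 2738 against 166 labelled control. Epithelial markers were at 915 CPM against 230.5 at E18.5 and 886 against 22.7 at P8. In the library labelled null 36.1% of the ECs with and 3.59% of those without large-artery markers also passed the gate of another cell class, and in the one labelled control 34.4% and 5.23%. Their part in the values of Thsd7a and the other members was not tested.

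The whole lungs held the other cell classes of the lung, and Ptprb, Thsd7a and Stmn2 were almost absent from them, while the other members were not. Ptprb, Thsd7a and Stmn2 were at most at 2.99, 2.29 and 1.96 CPM in epithelial, mesenchymal or immune cells of either library, against 432, 61.2 and 426 CPM in ECs labelled null and 492, 55.2 and 228 labelled control. Mecom was at 253 and 320.4 CPM in epithelial cells (labelled null and control), above the ECs as a whole (194 and 132). Slc6a6 was at 288 and 352 CPM in immune cells, against 181 and 155 in ECs. Atp13a3 was at 127 and 122 CPM in epithelial and 99.0 and 100.5 in immune cells, and at 60.3 and 43.1 in ECs. Adgrg6 was at 85.5 and 97.1 CPM in mesenchymal cells, above its level over all ECs (40.9 and 53.9). Between the libraries, in mesenchymal cells Tm4sf1 (83.8 and 44.0 CPM) and Mecom (68.6 and 39.4) were past 1.5-fold lower labelled control (1.82% of all genes), while past 1.5-fold in either direction were 0 of 6 tested members in epithelial (2.7%) and 0 of 3 in immune cells (3.24%).

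**Figure D4:**
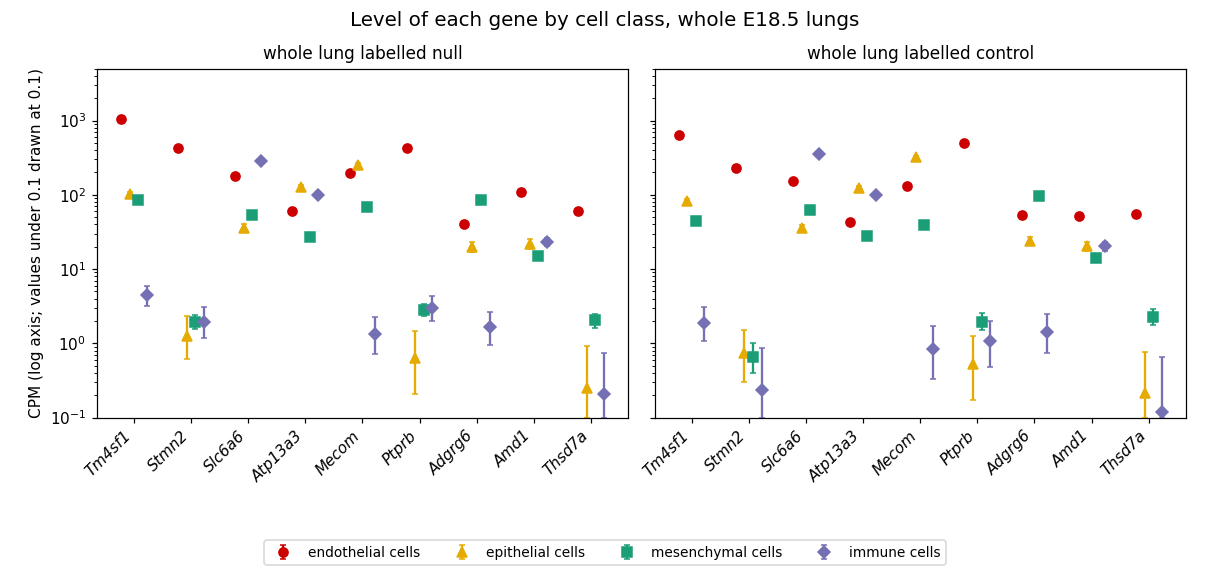
CPM on a log axis of each gene in endothelial, epithelial, mesenchymal and immune cells of the whole lungs labelled null (left) and control (right), with exact Poisson 95% intervals as bars and values under 0.1 drawn at 0.1. Ptprb, Thsd7a and Stmn2 lie under 3 CPM outside the ECs, whereas Mecom is as high or higher in epithelial cells, Slc6a6 in immune cells and Adgrg6 in mesenchymal cells.

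Mesenchymal cells also make Cxcl12, and most of the 9 genes were not past 2-fold with it there. This comparison was added after the data had been seen. Between 5 or more and 0 Cxcl12 UMIs, past 2-fold higher were 1 of 7 tested members at E13.5 (Stmn2, 1.53% of all genes), 0 of 6 at E15.5 (0.496%), Tm4sf1 and Mecom of 8 at E18.5 (5.86%) and Tm4sf1 of 6 in the library labelled null (3.51%). Past 2-fold lower were Slc6a6 and Adgrg6 at E18.5 (10.8% of all genes) and Adgrg6 in the library labelled null (10.4%). Labelled null, Adgrg6 was at 91.6 CPM in 3718 mesenchymal cells without Cxcl12 UMIs and 5.27 CPM in 73 with 5 or more, and in the sorted E18.5 library at 61.9 and 1.44 CPM (133 and 60 cells). Mesenchymal cells were collected there only if they carried the reporter. The mesenchymal cells rich in Cxcl12 also differed in other markers. At E18.5 18.3% of them and 3.76% of those without Cxcl12 UMIs had 2 or more UMIs of Gja4 and Gja5, with the arterial list at 3124 and 1273 CPM and the capillary list at 277 and 680. Labelled null these shares were 24.7% and 4.17%, with the arterial list at 1205 and 817 CPM, the capillary list at 499 and 1294 and the mesenchymal list at 22281 and 13292. Their part in the values of Tm4sf1, Mecom, Slc6a6 and Adgrg6 was not tested.

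Cell by cell, Spearman coefficients with Cxcl12 are descriptions over cells of 1 library, which share its depth, and the genes were chosen for such a relation. The median coefficient of the 9 genes was 0.21 over 210 ECs at E13.5 and 0.48 over 9453 at E15.5, with Adgrg6 the lowest at the latter age (0.07). It was 0.58 over 9119 ECs at E18.5, 0.47 over 8259 at P8 and 0.56 over 3019 in the library labelled null. In cells thinned to 2000 UMIs the medians were lower, 0.15, 0.30, 0.48 and 0.35 in the sorted libraries from the youngest to the oldest and 0.41 labelled null. The thinned value at E13.5 is a median over 8 of the genes. Among 12689 genes labelled null all 9 ranked between 2 and 34. With the sum of Gja4 and Gja5 the median was 0.55 labelled null and 0.43 labelled control, where the 9 ranked between 1 and 101 of 12667 genes, and in thinned cells it was 0.36 and 0.35. All 36 pairs among the 9 genes had coefficients above 0 in thinned ECs of every library but E13.5, where 24 had. The median over pairs was 0.28 at E18.5, 0.27 labelled null and 0.22 labelled control. The share over all pairs of genes was not computed. Each member was chosen for following Cxcl12, so coefficients above 0 between them are partly built in and nothing is read from them.

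Across 16 groups of ECs, which are the sorted libraries by Cxcl12 group and the whole lungs by the gate, the mean standardised log2 level of the 9 genes was most like that of Avpi1 (Pearson r = 0.98), Pcsk5 (0.96) and Gata6 (0.96) among 6002 genes, and Cxcl12 itself was at 0.76. Groups of 1 library share its depth and preparation and are not independent. Most of the groups are Cxcl12 groups, and the genes were chosen for following Cxcl12, so likeness over them is partly built in. The value for Cxcl12 takes in the library labelled control, where it was at 12.8 CPM in arterial-marker ECs, against 954 labelled null. Each member's own level went with the mean of the other 8 with r = 0.94 for Slc6a6, 0.91 for Amd1 and Atp13a3, 0.86 for Tm4sf1 and Thsd7a, 0.70 for Stmn2, 0.68 for Ptprb, 0.65 for Mecom and 0.31 for Adgrg6. The single genes most like the members were Gclm for Tm4sf1, Msx1 for Stmn2, Avpi1 for Slc6a6, Pdzd2 for Atp13a3, Hotairm1 for Mecom, Cadps2 for Ptprb, Baz2b for Adgrg6, Slc45a4 for Amd1 and Armcx6 for Thsd7a, with r from 0.91 to 0.97.

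Polyamine genes were looked at as a list because Amd1 and Atp13a3 belong to it. Between 5 or more and 0 Cxcl12 UMIs, 3 of its 16 tested genes were past 2-fold higher and 0 lower at E13.5, 5 and 1 of 16 at E15.5, then 6 and 1 of 16 at E18.5, 4 and 0 of 15 at P8 and 6 and 1 of 16 in the library labelled null. In the same order 11.1%, 2.45%, 4.09%, 1.21% and 3.33% of all genes were higher and 4.17%, 2.03%, 4.66%, 1.29% and 4.43% lower. These counts hold Amd1 and Atp13a3, which were chosen for this pattern. Without them 1 of 14, 3 of 14, 4 of 14, 2 of 13 and 4 of 14 were higher. The list without them still holds Amd2, which shares most of the 3′ end of Amd1. Amd2 is among the genes counted as higher from E15.5 on, and its reads may not be told from those of Amd1. From E15.5 on the median of the whole list as a log2 ratio was 0.38, 0.20, 0.05 and 0.21, against 0.06, 0.05, -0.00 and 0.03 over all genes, and without Amd1 and Atp13a3 it was 0.11, 0.18, 0.03 and 0.11. Azin1, which spares ornithine decarboxylase from its antizyme, was at 1.58, 2.04, 1.41 and 1.61. Odc1, that decarboxylase and the first enzyme of polyamine synthesis, was lower, at -1.84, -0.62, -0.73 and -1.08. Sat1, which acetylates polyamines for export or breakdown, was at 1.25, 1.18, 0.74 and 1.24, and the synthases Sms at 0.63, 1.18, 0.50 and 1.05 and Srm at -0.69, 0.19, -0.38 and -0.03. The genes of synthesis, import and breakdown thus did not all differ in 1 direction. In the taurine list, Slc6a6 was the only 1 of 3 tested genes past 2-fold at E15.5, E18.5 and P8, where 2.45%, 4.09% and 1.21% of all genes were higher. Slc6a6 was chosen for this pattern. Csad, a taurine synthesis enzyme, was at 0.50, 0.80 and 0.20. Cdo1, also of this list, had 45 UMIs with 5 or more Cxcl12 UMIs and 0 without at E13.5. It was at 0.42 at E15.5, where arterial-marker over other ECs gave 1.32, and was under 10 CPM at E18.5 and P8.

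Relatives of the members mostly did not reach 10 CPM. Of 26 relatives 5 to 7 were tested from E15.5 on, and past 2-fold higher were 2 at E15.5, 2 at E18.5, 1 at P8 and 2 in the library labelled null, where 2.45%, 4.09%, 1.21% and 3.33% of all genes were. Amd2, which shares most of the 3′ end of Amd1, was among them at each age. The other at E15.5, E18.5 and labelled null was Prdm16, the closest relative of Mecom, with log2 ratios of 1.02, 2.52 and 1.74. Stmn1, the ubiquitous stathmin, was at -0.25, -0.60, 0.08 and -0.65 from E15.5 to P8 and labelled null, below 0 in all but P8. In a list of 8 genes that act with VE-PTP and Tie2, which leaves out Ptprb itself, 0 were past 2-fold at E15.5 and P8, and 1 was higher (Tek) and 1 lower (Kdr) at E18.5 and labelled null. Tek (Tie2) was at 0.37, 1.45, 0.82 and 1.52, and the VEGF receptor Kdr at -0.16, -1.32, -0.90 and -1.08. Tie1 stayed between 0.14 and 0.45.

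Lists of EC markers gave the setting. Of the arterial list 4 of 16 tested genes were past 2-fold higher at E13.5, 10 of 17 at E15.5, 11 of 16 at E18.5, 6 of 16 at P8 and 12 of 15 in the library labelled null, against 11.1%, 2.45%, 4.09%, 1.21% and 3.33% of all genes. Past 2-fold lower were 0, 1, 0, 2 and 0, against 4.17%, 2.03%, 4.66%, 1.29% and 4.43%. Bmx, a kinase of arterial ECs, was at log2 ratios of 1.35, 3.20, 1.90 and 4.61 from E15.5 to P8 and labelled null, and the Notch ligand Jag1 at 1.99, 3.39, 0.89 and 3.40. Of the capillary list 1 was past 2-fold higher and 3 of 6 lower at E13.5, and in the other 4 libraries 0 were higher and 4 of 7, 8 of 10, 3 of 11 and 4 of 10 were lower, to be read against the same shares. Apln, a ligand made by capillary ECs, was at -1.34, -2.87, -1.72 and -2.64. Of 10 genes listed as pan-endothelial 0, 1, 0 and 1 were past 2-fold higher and 0, 2, 0 and 2 lower, and of 5 cycling genes 0, 5, 3 and 5 were lower. The pan-endothelial list holds Emcn, which the study used to mark capillary and venous ECs, so the list is not even across types of EC. Between the whole lungs, 0 of 15 tested genes of the arterial list were past 1.5-fold in either direction in the arterial-marker ECs, and their median log2 ratio was -0.11, beside that of -0.15 for the 9 genes.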

How the data were processed

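Cell-by-gene tables of 6 10x 3′ libraries were used. The authors aligned reads and counted UMIs with Cell Ranger (3.1 in the submitters' notes; the file headers give 3.1.0 for E13.5 and the whole lungs and 3.0.2 for the rest), and the deposited counts are whole-number UMIs per gene and cell, not normalized, on GRCm38. SoupX-adjusted expected counts, from which the authors had removed free RNA, were deposited for the whole lungs and served only for cell filters and an alternative. Seurat 3.2.2 is named in the notes, and 0 columns belonged to samples of other series. Cells with at least 700 detected genes and 0.5 to 10% mitochondrial UMIs were kept (whole lungs by the adjusted counts), and gated on summed UMIs: ECs (Pecam1, Cdh5, at least 2), arterial-marker ECs (Gja4, Gja5, at least 2), and, for cells in no other gate and with at most 10% haemoglobin UMIs, mesenchymal (Col1a2, Col3a1, Pdgfra, Pdgfrb, at least 5), epithelial (Epcam, Cdh1, at least 2) and immune (Ptprc, Tyrobp, Coro1a, at least 3). Library totals ran from 63746333 to 117522172 UMIs.

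UMIs were summed per group and given as CPM with exact 95% Poisson intervals. Ratios are log2 of CPM with 0.5 CPM added, for genes of at least 10 CPM, with an exact conditional binomial interval made from the counts without the added 0.5, which can lie to 1 side of the ratio of a scarce gene. Shares were taken from cells thinned to 2000 UMIs, with exact Clopper-Pearson intervals. No test across libraries was possible with 1 library per condition, so a call is a fold (2 within a library and between ages, 1.5 between the whole lungs) and no p-value was computed. Intervals cover counting error only, and groups under 30 cells gave no value. Scrublet was run at an expected rate of 6%, but marked under 0.5% of cells in the E13.5, E18.5 and P8 libraries and was void there, so doublets were kept in the main values.

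Named genes were the 9 members, Cxcl12 and the gate genes, up to 4 genes of each list with the largest mean log2 ratio in 1 direction from E15.5 to P8, relatives and polyamine genes of at least 50 CPM, and the genes most like the members over groups of ECs. The members and lists were chosen with earlier results of these data known. The polyamine list holds both Amd1 and Atp13a3. Columns were read with Python 3.11.15, numpy 2.4.6, scipy 1.17.1, pandas 2.3.3 and scanpy 1.11.5, and figures drawn with matplotlib 3.10.9. The ratios and intervals were tested on simulated data.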

Additional observations from a re-analysis of the deposited data

Results flagged for a closer look

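In mesenchymal cells, 6 values of the members lay on the other side of 0 from the value in ECs of the same library, with counting intervals of both values that left out 0, when cells with 5 or more Cxcl12 UMIs were set against cells with 0. Values with an interval that held 0 are not listed. The share of all genes that pass the same rule was not computed, so the number of values is not read as a result about the members. The differences between the classes were not tested, and they were looked for after the data had been seen. Slc6a6 was at a log2 ratio of -0.43 at E13.5 (ECs 0.59) and -1.08 at E18.5 (ECs 2.87). Amd1, whose 3′ end is shared with other genes, was at -0.28 at E13.5 (ECs 1.61). Adgrg6 was at -0.99 at E15.5 (ECs 0.62), at -5.01 at E18.5 (ECs 3.73) and at -4.00 in the whole lung labelled null (ECs 2.39). At E15.5 it was under the limit of 10 CPM, at 2.97 and 6.41 CPM in mesenchymal cells with 5 or more and with 0 Cxcl12 UMIs. The Adgrg6 values rest on few UMIs, with 1 UMI in the E18.5 mesenchymal cells rich in Cxcl12 (counting interval -10.75 to -2.89) and 5 in those of the whole lung labelled null (-5.74 to -2.89).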

How the results depend on the processing

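No paired analysis was possible because each condition has 1 library and the labels give no replicate numbers, and no replicate could be left out. Of 125 counts of members past the fold under alternative settings, 115 stayed within 1.5 times the main count and 10 did not. Shares of all genes were not computed under these settings. Of 1125 log2 ratios of single members, 624 moved by less than their counting interval, 500 moved by more and 1 that was past its fold changed sign: Adgrg6 in arterial-marker over other ECs labelled control was at 1.16, and at -0.16 with a gate without Gja4 (at least 3 UMIs of Gja5, Hey1, Bmx and Sox17). Among those not called, 20 more changed sign, 9 within a library (all at E13.5, or Adgrg6 at E15.5) and 11 between the whole lungs. Over all alternatives, members past 2-fold between 5 or more and 0 Cxcl12 UMIs numbered 1 to 3 at E13.5 (main 2), 7 to 8 at E15.5, 9 at E18.5, 8 to 9 at P8 and 9 labelled null. At E13.5 the count was 1 (Atp13a3) in cells thinned to 2000 UMIs. With the gate without Gja4, members past 2-fold in arterial-marker ECs numbered 1 at P8 (Adgrg6, main 5) and 5 labelled control (main 9). Between the whole lungs, members past 1.5-fold in arterial-marker ECs (main 1, Amd1) numbered 2 without cells that passed another class's gate, without Scrublet calls or with an arterial-marker gate of at least 4 UMIs (Adgrg6 and Amd1 each time), 2 with the gate without Gja4 (Stmn2 and Amd1), 0 in thinned cells and 3 with SoupX (Ptprb, Adgrg6 and Thsd7a). In the other ECs they numbered 2 (Stmn2 and Ptprb) with the gate without Gja4 (main 4). SoupX moved the median of all genes between these libraries from 0.02 to -0.01. The cause of these moves was not tested. Leaving out shared barcodes, leaving out ECs with large-artery markers and counting members under 10 CPM were added after seeing the data.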
